A study of Mus musculus with 72 samples.

Results

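Housing in a 12 h light and 12 h dark cycle (LD) was compared with housing in constant darkness (DD) in the suprachiasmatic nucleus (SCN) of mice fed a diet without tryptophan (-Trp), over the night. The comparison used 18 of the 72 RNA-sequencing libraries of the series, namely 9 from -Trp LD and 9 from -Trp DD, with 3 libraries per side at each of 12, 16 and 20 h. The mice were male C57BL/6, 8 weeks old when acclimation to the schedules began, and were kept singly for 1 week under their light schedule and then for 2 weeks on the amino acid diet while the schedule went on, so lack of dietary tryptophan was common to both sides. The other diet of the series was a nitrogen-matched control (Ctrl), and all 4 groups were sampled at 6 time points. Values are FPKM, fragments per kilobase of transcript scaled to the mapped fragments of a library, and scaled FPKM below are these values divided by a median-of-ratios factor for each library. Differences are log2 of LD over DD after adding 0.5 to each scaled value, given with their standard error (SE) and with limma p-values adjusted over all genes tested.

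The diet and the hour of these libraries rest on an order of columns that is not settled. By their column headings the 18 libraries are Ctrl LD and Ctrl DD at 4, 8 and 12 h. A copy of the control-diet values under the headings of the study placed 36 of 36 columns 12 columns further on, and the diet and hours used here continue that shift. Which order is right is not known. The LD or DD label, the replicate and the grouping into 3 time points are the same under both, so the differences between LD and DD of these 18 libraries hold under either, while the words -Trp, 12, 16 and 20 h do not. In the other 54 libraries the LD or DD label itself changes between the orders for most libraries, and what is said of those holds only with the shift.

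The SCN is the hypothalamic pacemaker that receives light from the retina and keeps the time of day for the body. In its neurons CLOCK and ARNTL (BMAL1) activate the Per and Cry genes, whose proteins then repress them, while NR1D1 and NR1D2 repress and the ROR factors activate Arntl. Light at night reaches this loop through glutamate and PACAP, CREB and the immediate early genes, among which Per1 and Per2 are counted, and vasoactive intestinal peptide and arginine vasopressin couple its cells. Tryptophan is the precursor of serotonin, which reaches the SCN from the raphe nuclei, and of kynurenine and NAD.

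The tissue label was checked against region markers, and the sides differed in them. Syt10, a synaptotagmin that marks the SCN, was at 0.572 to 3.84 (median 2.05) scaled FPKM in LD and 5.46 to 12.9 (median 9.28) in DD. Every LD library was below every DD library, and the difference was -1.93 ± 0.20 (SE, adjusted p = 2.59e-07). Six6, a transcription factor needed to form the SCN, was at 0.086 to 2.19 (median 1.15) scaled FPKM in LD and 1.81 to 4.7 (median 3.36) in DD, a difference of -1.28 ± 0.26 (SE, adjusted p = 0.000341) with some overlap between the sides. Vip was at 3.91 to 26.9 (median 12.2) scaled FPKM in LD and 1.37 to 56.9 (median 21.9) in DD and Avp at 43.2 to 961 (median 272) scaled FPKM in LD and 134 to 435 (median 375) in DD. Both overlapped widely between LD and DD and did not pass the test (adjusted p = 0.351 and 0.404). Of the 12 SCN markers, 2 were called higher in LD and 5 lower, with a median log2 difference of -0.417 that was 0.00388 at 16 h, against a median of 0.031 over the 14403 genes tested. At an adjusted p under 0.05, 38% of all genes tested were called higher and 33.7% lower. Separation of all 9 LD from all 9 DD libraries held for 5035 of the 14403 genes tested. The words without overlap refer to it below, unless time points or hours are named.

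Lhx6, Lhx8 and genes of cholinergic neurons were among those with the largest excess in LD. Among genes whose LD and DD libraries did not overlap at any of the 3 time points, which 42.1% of all genes tested fulfilled in a common direction, the 12 with the largest excess in LD included Lhx6, Gm6644, Lhx8, AI606473, Chat, Ngfr, Pvalb, Slc10a4, Scn4b and Slc18a3. Lhx6, a LIM-homeobox factor of forebrain interneurons (chromosome 2), was at 6.84 to 22.7 (median 17.9) scaled FPKM in LD and 0.178 to 5.93 (median 0.634) in DD, a difference of 3.54 ± 0.36 (SE, adjusted p = 1.36e-07). Every LD library was above every DD library, of which the highest was replicate 3 of 12 h and the other 8 stood at 1.79 or less. Lhx8, a LIM-homeobox factor of cholinergic neurons, was at 3.6 to 14.2 (median 11.2) scaled FPKM in LD and 0.0299 to 4.58 (median 0.262) in DD, and the sides met only through the highest DD library. Chat, the acetylcholine-making enzyme, was at 1.46 to 8.71 (median 6.03) scaled FPKM in LD and 0.111 to 1.74 (median 0.232) in DD, a difference of 2.59 ± 0.27 (SE, adjusted p = 1.93e-07). Slc18a3, the vesicular acetylcholine transporter, differed by 2.28 ± 0.27, and Slc5a7, the choline transporter of the same neurons, by 1.79 ± 0.23. Ngfr, the neurotrophin receptor p75 that cholinergic neurons carry, differed by 2.46 ± 0.24. Slc5a7 was chosen after its values were seen, as were all genes named below outside the naming rule of the methods.

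Most genes of the arcuate list, and Pmch, were lower in LD, but not in every library. Agrp, the orexigenic peptide of arcuate neurons, was at 0.189 to 26.6 (median 0.644) scaled FPKM in LD and 0.697 to 89.1 (median 63.9) in DD. It was at 0.697 and 2.44 in replicates 1 and 3 of DD at 12 h and at 40.1 or more in the other 7 DD libraries, and among the LD libraries 3 stood at 8.56 to 26.6 and 6 at 1.08 or less. Pomc, the melanocortin precursor, followed the same libraries, with 2.12 to 58.8 (median 5.5) scaled FPKM in LD and 2.88 to 86.1 (median 59.8) in DD. The arcuate list held 1 gene higher and 6 lower of 8 tested, with a median difference of 0.018 at 12 h, -2.09 at 16 h and -1.94 at 20 h. Pmch, the melanin-concentrating hormone of the lateral hypothalamus, ranged from 1.84 to 411 (median 10.5) in LD and from 7.82 to 603 (median 329) in DD, a difference of -3.25 ± 1.15 (SE, adjusted p = 0.0178). In bulk tissue, fewer cells of a kind in the dissected piece and less RNA per cell cannot be told apart, and the part of such marker levels in the other differences was not tested.

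**Figure D1:**
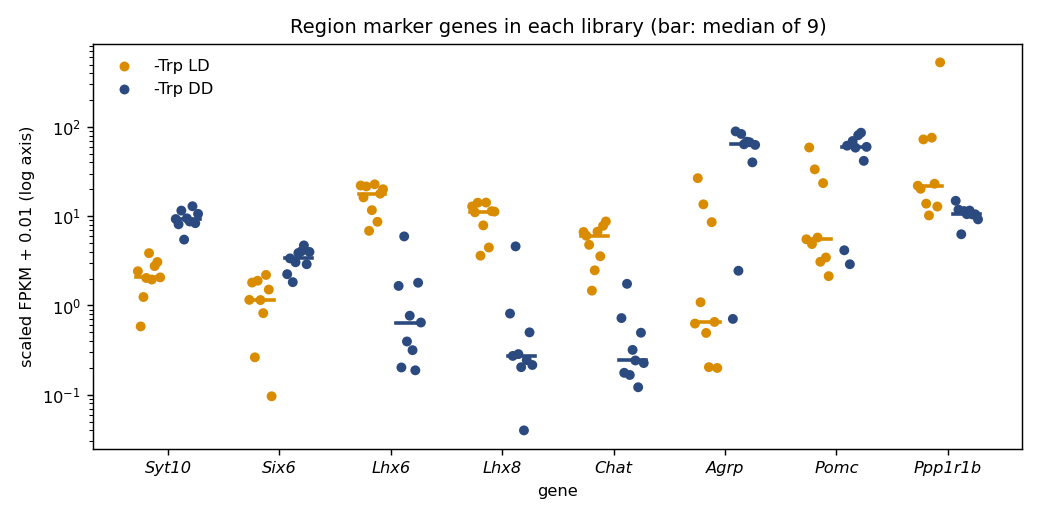
Scaled FPKM plus 0.01 on a log axis for 8 region marker genes, 1 point per library, for -Trp LD (orange) and -Trp DD (blue), with a bar at the median of the 9 libraries. Syt10 is lower in every LD library, Lhx6 and Chat are higher in LD, and Agrp and Pomc split the libraries within each side.

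A few libraries stood apart in sums over marker lists. In replicate 3 of LD at 20 h the cortex and striatum markers summed to 906 scaled FPKM against 134 or less in the other LD libraries, with Ppp1r1b (DARPP-32, of striatal projection neurons) at 528 and Drd2 at 35.9, and the immediate early genes summed to 138. The same library held the lowest Avp (43.2), Six6 (0.086) and Oxt (258) of its side. Replicate 2 of LD at 12 h had the largest sum of SCN markers, 991 against 514 or less, set by an Avp of 961, and replicate 1 of DD at 12 h the largest sums of choroid plexus (58.5) and thalamus (261) markers on its side. Without these 3 libraries 10509 genes were called in place of 10329, and every one of the 10329 genes called with all libraries kept its direction.

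The sides also differed in the sum of all deposited FPKM. It was 430911 to 524705 in the LD libraries (median 456896) and 330230 to 353587 in the DD libraries (median 347651), with no overlap. FPKM carries a scaling to library size, and depth, and whether the libraries had been scaled to each other, are unknown. The mean excess of LD, 120306, was the balance of 141035 over 10801 rows higher in LD and -20729 over 10054 rows higher in DD. No small group of genes carried it, and 1872 rows were needed, taken from the largest excess down, to add up to the difference. Cytosolic ribosomal proteins gave 16.7% of it and nuclear-encoded subunits of oxidative phosphorylation 9.83%. The 10 rows with the largest difference in mean FPKM were Fth1 (ferritin heavy chain), Cst3, Rps29, Ppia, Apoe, Rpl41, Rplp1 and Ubb on the side of LD, and Meg3 and Mir7093 on the side of DD. Fth1 was at 1598 to 3041 (median 2050.0) scaled FPKM in LD and 923 to 1183 (median 945) in DD. Mir7093 was listed at 20965 FPKM in replicate 1 of DD at 20 h and at 0 in the other 17 libraries, so that its mean rests on that library.

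**Figure D2:**
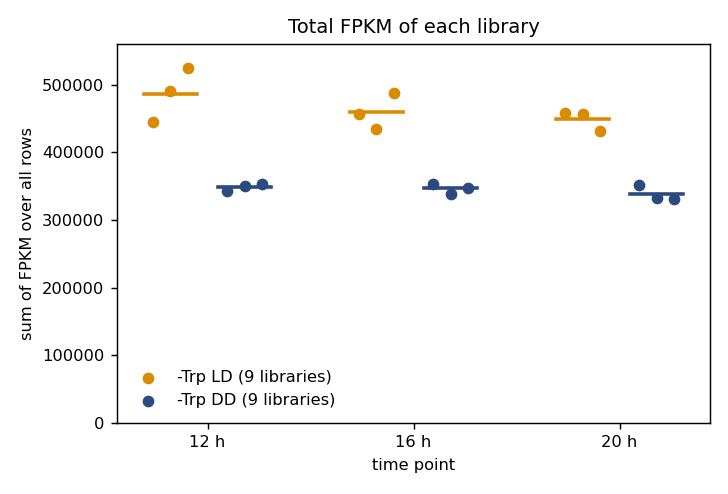
Sum of deposited FPKM over all rows (y axis, from 0) for each of the 18 libraries by time point, with a bar at the mean of 3. The 9 LD libraries sit between 430911 and 524705 and the 9 DD libraries between 330230 and 353587.

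Because of this difference the comparison was run under 5 scalings. With median-of-ratios factors, 0.956 to 1.083 in LD and 0.914 to 1.001 in DD, 10329 of 14403 genes (71.7%) were called, 5477 higher and 4852 lower in LD, so that 53% of the calls were higher. By at least 0.5 on the log2 scale, 2220 were higher (15.4%) and 2561 lower (17.8%). The share of calls higher in LD was 60.9% with FPKM as deposited, 41.2% with upper-quartile scaling and 23.1% with FPKM as a share of the sum, and the median over all genes moved from 0.0313 to 0.118, -0.0855 and -0.261. Under all 5 scalings 2353 genes (16.3%) were called higher and 4091 (28.4%) lower, and 4215 changed sign between scalings. The direction of a small difference thus depended on the scaling, while differences such as that of Lhx6, 3.27 to 3.61, or Syt10, -2.21 to -1.84, kept theirs. Total FPKM and the light schedule split the libraries in the same way and cannot be told apart.

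The differences followed transcript length and level. Among protein-coding genes the quintile with the shortest longest transcripts (216 to 1992 bases) had a median difference of 0.375, with 1662 higher and 261 lower of 2637, and the quintile with the longest (5354 bases or more) one of -0.399, with 308 higher and 1762 lower of 2636. By mean level, the medians ran from -0.231 in the lowest quintile to 0.417 in the highest. Long intergenic non-coding RNAs had a median of -0.301, with 24 higher and 84 lower of 161. In a second version, added after this trend was seen, the median of genes of like length and level was subtracted in every library. Each median came from 36 to 324 genes, the gene itself among them. Of the 13809 genes with a known length 8587 were called (4330 higher, 4257 lower), and 82% of the 9915 genes called before kept their direction. Past 0.5 it called 2862 genes in place of 4583. Of the 127 genes this text names, 123 have a known length, of which 12 lost their call, 5 gained one and 6 changed sign with the trend removed.

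**Figure D3:**
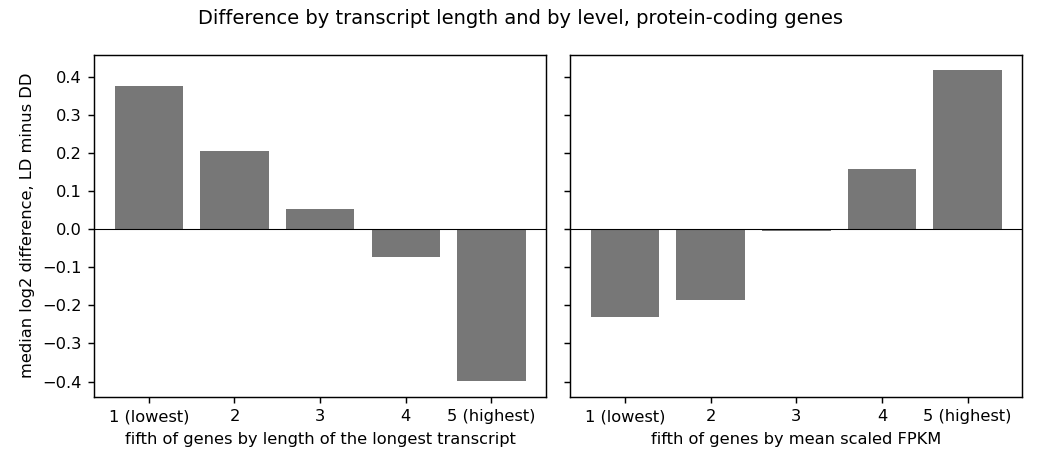
Median log2 difference of LD over DD for protein-coding genes in quintiles of longest transcript length (left) and of mean scaled FPKM (right). The median falls from 0.375 to -0.399 with length and rises from -0.231 to 0.417 with level.

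Of 9 long RNAs listed as nuclear 8 were lower in LD. The 12 with the largest deficit among genes without overlap at any time point were Tgoln2, Ipw, Zbed6, Meg3, Miat, Zim1, Rreb1, Cdr1, Leng8, Malat1, Lnpep and Plcxd3. Meg3, a maternally expressed long RNA of the Dlk1-Dio3 locus (chromosome 12), was at 85.4 to 256 (median 122) scaled FPKM in LD and 806 to 1161 (median 889) in DD. The lowest DD library was above the highest LD library, and the difference was -2.75 ± 0.17 (SE, adjusted p = 7.97e-10), or -2.73 with the trend removed. Ipw, of the Prader-Willi region, was at 10.3 to 47.2 (median 21.9) scaled FPKM in LD and 176 to 274 (median 211) in DD. Miat and Malat1, long RNAs held in the nucleus, were at 9.22 to 27 (median 11.3) scaled FPKM in LD and 87.3 to 115 (median 91.5) in DD for Miat and at 11.1 to 28.2 (median 14.2) scaled FPKM in LD and 78 to 108 (median 95.2) in DD for Malat1. Snhg11, a host of small nucleolar RNAs, differed by -2.41 ± 0.19 (SE, adjusted p = 9.08e-09). The 1 nuclear long RNA that was higher was Peg13, and the list had a median of -1.856 that was -1.76 to -2.179 under the 5 scalings and -1.73 with the trend removed. Leng8, -2.50, Rreb1, -2.55, and Lnpep, -2.50, are protein-coding. Zbed6, -2.92, lies within an intron of another gene, Zc3h11a, whose reads it may share.

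Tgoln2, a trans-Golgi protein, was listed at 0.0000377 FPKM or less in each LD library after scaling and at 23.5 to 28.4 (median 25.4) in DD, and was the only row below 0.01 FPKM in every library of a side and at 1 or more in every library of the other. Its near-identical copy Tgoln1 was at 44 to 64.4 (median 59.9) scaled FPKM in LD and 50.5 to 55.3 (median 52.1) in DD and did not pass the test (adjusted p = 0.537). No fold is given for Tgoln2, since reads of the pair can be assigned to either row.

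Among the clock genes Per2, Per3 and Clock were lower and Cry1 was higher in LD. Of 18 core clock genes 4 were called higher and 11 lower, with a median of -0.272. Under all 5 scalings none was called higher and 8 were called lower, and with the trend removed 3 were higher and 8 lower. Per3 was at 3.37 to 5.36 (median 4.58) scaled FPKM in LD and 7.31 to 12.8 (median 11.4) in DD, without overlap, a difference of -1.22 ± 0.10 (SE, adjusted p = 1.91e-08), or -0.88 with the trend removed. Per2 was at 2.76 to 4.52 (median 3.26) scaled FPKM in LD and 4.18 to 7.46 (median 5.74) in DD. Of the 9 DD libraries 7 were above every LD library, and the difference was -0.73 ± 0.09 (SE, adjusted p = 2.47e-06). Clock was at 3.7 to 6.48 (median 5.56) scaled FPKM in LD and 9.23 to 12.6 (median 10.2) in DD, without overlap, and differed by -0.94 ± 0.09 (SE, adjusted p = 4.5e-08). Fbxl21, a ubiquitin ligase subunit for the CRY proteins, differed by -0.83 ± 0.10 and Nr1d2 (REV-ERBβ) by -0.42 ± 0.07, both without overlap. Rora, -0.83 ± 0.13, lost its call with the trend removed (-0.16, adjusted p = 0.204). Cry1 was at 6.93 to 10.1 (median 8.56) scaled FPKM in LD and 4.68 to 7.22 (median 6) in DD. It was the gene of this list most clearly higher in LD, in 8 of 9 libraries above the highest DD value, by 0.47 ± 0.07 (SE, adjusted p = 8.42e-06) and by 0.16 to 0.56 over the scalings. Per1 was at 8.04 to 11.3 (median 9.59) scaled FPKM in LD and 9.18 to 13.9 (median 11) in DD and did not pass the test (-0.22 ± 0.10, adjusted p = 0.0607), though it did without the 3 libraries that stood apart (-0.32, adjusted p = 0.0102). Timeless, at 0.395 to 0.626 (median 0.523) scaled FPKM in LD and 0.567 to 1.37 (median 0.728) in DD, differed by -0.32 ± 0.08 (SE, adjusted p = 0.00178), and by 0.04 with the trend removed.

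The largest departure between hours within this family was at 12 h. Arntl had means of 5.03 in LD and 8.92 in DD at 12 h, 7.67 and 7.81 at 16 h, and 8.33 and 9.04 at 20 h, each over 3 libraries. All 3 LD libraries were below all 3 DD libraries at 12 h and the sides overlapped later. Dbp, a D-box factor driven directly by CLOCK and ARNTL, had means of 36.2 and 17.4 at 12 h, 19.2 and 21.6 at 16 h, and 18.8 and 15.9 at 20 h. The change of the difference with time did not pass the test for either gene (adjusted p = 0.583 for Arntl and 0.583 for Dbp). Of 10 clock output factors 4 were higher and 2 lower, with a median of 0.15 that turned to -0.169 as a share of the sum and to -0.13 with the trend removed, where 4 were higher and 4 lower. Nampt, the rate-limiting enzyme of NAD salvage, was at 8.67 to 11.7 (median 10.6) scaled FPKM in LD and 12.3 to 14.8 (median 13.5) in DD, without overlap, and differed by -0.37 ± 0.06 (SE, adjusted p = 1.35e-05). Nfil3 (E4BP4), the repressor that opposes DBP, differed by 0.58 ± 0.10 (SE, adjusted p = 3.77e-05).

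**Figure D4:**
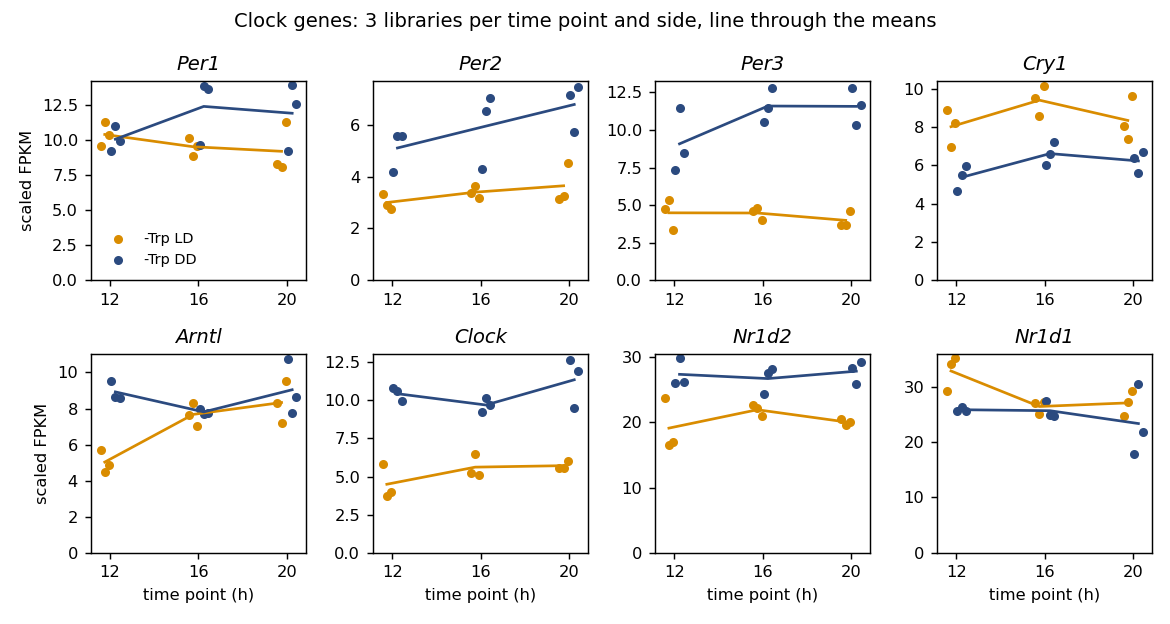
Scaled FPKM of 8 clock genes in each library at 12, 16 and 20 h, with a line through the means of 3 libraries, for -Trp LD (orange) and -Trp DD (blue). Per2, Per3, Clock and Nr1d2 lie lower and Cry1 higher in LD at all 3 time points, and Arntl is apart at 12 h.

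Among neuropeptides of the SCN, 6 of 15 tested were higher in LD and none was lower, with a median of 0.009. Of all genes tested 38% were higher and 33.7% lower, so the share higher was near that of all genes. Under all 5 scalings 3 were called higher. With the trend removed 4 were higher and 2 lower, with a median of -0.172, and without the 3 libraries that stood apart 7 were higher and 1 lower, with a median of 0.299. Vgf, a secretory granule protein whose peptides are released by SCN neurons, was at 70.8 to 118 (median 91.2) scaled FPKM in LD and 29.5 to 58.5 (median 43.3) in DD, without overlap, a difference of 1.003 ± 0.11 (SE, adjusted p = 3.82e-07). Nts, neurotensin, was at 47.8 to 87.6 (median 51.8) scaled FPKM in LD and 8.81 to 81.9 (median 14.4) in DD, and its DD values met those of LD through the highest DD library. The difference was 1.83 ± 0.30 (SE, adjusted p = 3.32e-05). Penk, proenkephalin, differed by 1.37 ± 0.32 (SE, adjusted p = 0.000938). Its highest LD value, 838, was in the library with high striatal genes, and without the 3 libraries that stood apart the difference was 1.06. Of 11 peptide and light-input receptors tested, 2 were higher and 3 lower. Htr7, the serotonin receptor through which serotonin shifts the SCN clock, was at 7.5 to 13.1 (median 10.7) scaled FPKM in LD and 5.69 to 8.27 (median 7.14) in DD and differed by 0.55 ± 0.09 (SE, adjusted p = 3.7e-05), while Nmur2, the neuromedin S receptor, differed by -0.70 ± 0.12. Adcyap1r1, the PACAP receptor, was at 46.5 to 69.9 (median 63.5) scaled FPKM in LD and 50.3 to 66.4 (median 59.4) in DD and did not pass the test.

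Immediate early genes moved in both directions. Of 16 tested 7 were higher and 2 lower in LD, with a median of 0.429, or 0.131 to 0.497 over the scalings. Under all 5 scalings 1 was called higher and 1 lower. With the trend removed 10 were higher and 1 lower, with a median of 0.484. Dusp1, the phosphatase that ends MAP kinase signalling, was at 4.76 to 6.54 (median 5.15) scaled FPKM in LD and 3.21 to 4.69 (median 3.75) in DD, without overlap, and Jun, of the AP-1 complex, differed by 0.43 ± 0.08. Both lost their call as shares of the sum. Npas4, which neurons induce on calcium entry, went the other way. It was at 0.686 to 1.83 (median 0.79) scaled FPKM in LD and 2.35 to 3.72 (median 2.84) in DD, every LD library below every DD library, a difference of -1.15 ± 0.14 (SE, adjusted p = 1.39e-06). Egr1 was at 3.45 to 39.5 (median 6) scaled FPKM in LD and 2.85 to 5.64 (median 4.32) in DD and did not pass the test (adjusted p = 0.053). Its highest value was again in replicate 3 of LD at 20 h. Of 14 genes linked to CREB 1 was higher and 4 were lower, with a median of 0.013. With the trend removed 4 were higher and 3 lower, with a median of 0.186. Sik2, a kinase that holds CREB coactivators in the cytoplasm, differed by -0.92 ± 0.09 (SE, adjusted p = 1.42e-07), and Crtc2, such a coactivator, by -0.50 ± 0.06 (SE, adjusted p = 2.11e-06), both without overlap.

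Receptors and channels divided by subunit. Of 22 glutamate receptor genes 4 were higher and 11 lower, and of 21 genes of GABA synthesis and reception 7 were higher and 11 lower, with medians of -0.246 and -0.265 and, with the trend removed, of -0.116 and -0.253. Gria2, the AMPA receptor subunit that sets calcium permeability, was at 17.6 to 47 (median 28.3) scaled FPKM in LD and 68.7 to 90.2 (median 80.5) in DD. All LD libraries were below all DD libraries, and the difference of -1.47 ± 0.13 (SE, adjusted p = 3.9e-08) remained with the trend removed (-1.35). Grin2a and Grin2b, subunits of the NMDA receptor with very long transcripts, differed by -1.44 ± 0.13 and -1.37 ± 0.10, and by -0.70 and -0.66 with the trend removed. Slc32a1, the vesicular GABA transporter, was at 67.4 to 113 (median 92.9) scaled FPKM in LD and 24.5 to 47.3 (median 35.3) in DD, without overlap, a difference of 1.37 ± 0.13 (SE, adjusted p = 4.9e-08) (0.91 with the trend removed), whereas the GABA-A subunit Gabrb1 differed by -1.13 ± 0.07 (SE, adjusted p = 9.3e-10).

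Of 26 sodium and calcium channel genes 6 were higher and 16 lower, with a median of -0.439 that was -0.211 with the trend removed. Cacna1d, an L-type calcium channel, was at 2.13 to 3.19 (median 2.5) scaled FPKM in LD and 6.7 to 9.34 (median 7.41) in DD. The sides did not overlap, and the difference was -1.39 ± 0.07 (SE, adjusted p = 1.1e-10). Hcn2, a pacemaker channel counted in the same list, differed by 1.35 ± 0.09 (SE, adjusted p = 1.05e-09), and by 1.15 with the trend removed. Of 32 potassium channel genes 10 were higher and 10 lower, beside 38% and 33.7% of all genes tested. Kcnh7, of the ERG family, stood at 0.119 to 0.453 (median 0.322) scaled FPKM in LD and 1.69 to 2.06 (median 1.9) in DD, and Kcnab2, an auxiliary subunit, at 47 to 90.0 (median 56.5) scaled FPKM in LD and 20.9 to 32.2 (median 25.1) in DD. Synaptic vesicle proteins were mostly higher, 13 of 19 against 3 lower, with a median of 0.434, or 0.146 with the trend removed. Vamp2, a vesicle SNARE, was at 365 to 541 (median 419.5) scaled FPKM in LD and 152 to 237 (median 188) in DD, without overlap, and differed by 1.19 ± 0.09 (SE, adjusted p = 3.05e-09).

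Most heat shock proteins were higher in LD. Of 18 heat shock proteins 14 were higher and none lower, with a median of 0.559, 0.227 to 0.657 over the scalings and 0.17 with the trend removed, where 9 were higher and none lower. Stip1, the adaptor between HSP70 and HSP90, was at 107 to 186 (median 139.5) scaled FPKM in LD and 66.6 to 95.7 (median 77.5) in DD, without overlap, a difference of 0.84 ± 0.08 (SE, adjusted p = 1.12e-07). Hspa8, the constitutive HSP70, was at 1244 to 1738 (median 1498) scaled FPKM in LD and 838 to 1237 (median 966) in DD and differed by 0.58 ± 0.08, but did not pass with the trend removed (0.18, adjusted p = 0.0579). Of 19 genes listed under chaperones of the endoplasmic reticulum 15 were higher and 2 lower, with a median of 0.36. With the trend removed the median was 0.0103, and 5 of 18 were higher and 3 lower. The list also holds genes that are not chaperones, such as Ddit3 and Xbp1. Ddit3 is counted again below with the amino acid response. Sdf2l1, a cofactor induced by unfolded proteins, differed by 1.11 ± 0.10 (SE, adjusted p = 6.36e-08) and by 0.69 with the trend removed. Of 15 genes that respond to glucocorticoids 9 were higher and 1 lower, and 5 and 1 with the trend removed. Their median was 0.759 at 12 h, 0.385 at 16 h and 0.152 at 20 h, and whether it differed between hours was not tested as a list. Tsc22d3 (GILZ), a direct glucocorticoid receptor target, had means of 93.5 and 39.7 in LD and DD at 12 h and of 70.4 and 59.6 at 20 h, and lost its call with the trend removed (0.36, adjusted p = 0.0582). Cdkn1a, the cell cycle inhibitor p21, differed by 0.91 ± 0.15 (SE, adjusted p = 3.4e-05) over the 3 hours.

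Genes of the amino acid response were mostly higher in LD. Both sides were on 1 diet under either order of columns. In this response a lack of amino acids activates the kinase GCN2 and thereby translation of ATF4, which binds amino acid response elements in its targets. Of 18 genes tested 13 were higher and 3 lower, with a median of 0.435, 0.112 to 0.53 over the scalings and 0.13 with the trend removed, where 9 of 17 were higher and none lower. Atf4 itself was at 84.2 to 100.3 (median 91.5) scaled FPKM in LD and 44.4 to 56.6 (median 50.1) in DD, without overlap, a difference of 0.88 ± 0.04 (SE, adjusted p = 1.05e-10), or 0.39 with the trend removed. Chac1, a glutathione-degrading enzyme, was at 5.84 to 8.64 (median 6.94) scaled FPKM in LD and 3.22 to 4.11 (median 3.87) in DD, without overlap, and differed by 0.84 ± 0.06 (SE, adjusted p = 2.72e-09), or 0.74. Ddit3 (CHOP) was at 28.2 to 47.1 (median 34.2) scaled FPKM in LD and 18.2 to 22.2 (median 20.5) in DD. Asns, asparagine synthetase, was at 50.2 to 59.4 (median 56.4) scaled FPKM in LD and 35.9 to 45.8 (median 40.5) in DD, again without overlap, and its difference of 0.43 ± 0.05 shrank to 0.05 with the trend removed (adjusted p = 0.447). Slc7a11, the cystine transporter, lay in the other direction, at 2.42 to 4.53 (median 3.6) scaled FPKM in LD and 3.31 to 8.77 (median 6.75) in DD, with a difference of -0.77 ± 0.11 (SE, adjusted p = 9.02e-06) that shrank to -0.10 with the trend removed (adjusted p = 0.486).

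The letters TGATGNAA, a core of the amino acid response element searched on both strands, were found in the promoters of 6 of the 18 genes of this list that RefSeq promoters cover (33.3%), against 4.06% of 27025 promoters of the same length. Chac1, Asns and Slc7a11 hold a match and are shown as members that were higher (Chac1, Asns) and lower (Slc7a11) in LD before the trend was removed, of which Chac1 kept its call without it, with the heat shock protein gene Hspe1 beside them. Of the other members of the list with a match, Fgf21 and Trib3 did not reach the level needed for a test and Nupr1 was not called. The list was drawn up as genes of this response, so its share of matches does not bear on LD against DD. The windows run from 250 bases before to 50 after the start (RefSeq, GRCm38.p6), 5′ to 3′ on the strand of the gene, with each match in capitals.
Chac1, chr2:119350992-119351291, strand +: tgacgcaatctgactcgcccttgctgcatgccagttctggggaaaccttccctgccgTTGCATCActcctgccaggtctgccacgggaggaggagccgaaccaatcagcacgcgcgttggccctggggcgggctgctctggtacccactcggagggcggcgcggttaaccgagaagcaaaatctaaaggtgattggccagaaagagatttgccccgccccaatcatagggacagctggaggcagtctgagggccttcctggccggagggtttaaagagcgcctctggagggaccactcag
Asns, chr6:7693160-7693459, strand -: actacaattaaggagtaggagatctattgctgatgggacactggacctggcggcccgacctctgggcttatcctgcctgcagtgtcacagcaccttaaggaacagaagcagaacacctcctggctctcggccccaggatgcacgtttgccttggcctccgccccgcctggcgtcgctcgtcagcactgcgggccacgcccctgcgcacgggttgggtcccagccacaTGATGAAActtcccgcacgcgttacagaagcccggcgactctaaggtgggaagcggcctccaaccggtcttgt
Slc7a11, chr3:50443564-50443863, strand -: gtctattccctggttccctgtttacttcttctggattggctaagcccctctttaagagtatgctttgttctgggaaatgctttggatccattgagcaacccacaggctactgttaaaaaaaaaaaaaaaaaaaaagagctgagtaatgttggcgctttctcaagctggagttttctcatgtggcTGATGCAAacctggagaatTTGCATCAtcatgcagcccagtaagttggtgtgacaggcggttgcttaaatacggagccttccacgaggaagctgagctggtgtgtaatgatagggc
Hspe1, chr1:55087898-55088197, strand +: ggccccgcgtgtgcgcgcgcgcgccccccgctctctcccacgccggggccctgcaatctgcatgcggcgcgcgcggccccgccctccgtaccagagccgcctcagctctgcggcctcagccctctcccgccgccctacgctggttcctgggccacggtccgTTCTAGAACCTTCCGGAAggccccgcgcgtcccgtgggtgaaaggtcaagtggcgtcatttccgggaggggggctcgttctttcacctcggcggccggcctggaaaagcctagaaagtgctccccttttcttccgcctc
In Hspe1, the mitochondrial co-chaperonin, the capitals mark 2 overlapping matches to a heat shock element. The element is here 3 inverted units GAA, TTC and GAA with NN between neighbours, or the reverse complement. It was found in 3 of 14 promoters of the heat shock list (21.4%) and in 0.529% of all. Hspe1 was at 150.5 to 206 (median 192) scaled FPKM in LD and 92.8 to 150.0 (median 111) in DD and differed by 0.70 ± 0.10 (SE, adjusted p = 6.23e-06), or 0.12 with the trend removed (adjusted p = 0.208). A match is a description of the letters and not a site of binding.

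Of 20 genes of tryptophan use 18 were in the tables and 8 reached the level needed for a test, of which 1 was higher and 3 lower. Ido1, an enzyme that opens the kynurenine pathway, was at 0.631 to 4.31 (median 0.87) scaled FPKM in LD and 0.336 to 0.672 (median 0.441) in DD, with 8 of 9 LD libraries above every DD library and a difference of 0.65 ± 0.21 (SE, adjusted p = 0.00938). Maoa, which degrades serotonin, was at 9.997 to 15.7 (median 13.4) scaled FPKM in LD and 15.5 to 19 (median 16.5) in DD and differed by -0.36 ± 0.08 (SE, adjusted p = 0.000747). Aanat, at 0.0766 to 1.53 (median 0.358) scaled FPKM in LD and 0.948 to 1.59 (median 1.08) in DD, differed by -0.89 ± 0.16 (SE, adjusted p = 0.000119). Of 21 genes of NAD synthesis and use 4 were higher and 8 lower, with a median of -0.045. Sirt1 was lower and Sirt3, the mitochondrial deacetylase, higher, by -0.53 ± 0.08 and 0.50 ± 0.05. None of the 3 targets of the aryl hydrocarbon receptor that were tested passed at an adjusted p under 0.05, and 1 was higher with the trend removed. Of 23 genes of sterol synthesis 13 were higher and 6 lower, and the median of 0.242 turned to -0.086 as a share of the sum and to -0.0177 with the trend removed, where 5 were higher and 6 lower. Mvk, mevalonate kinase, differed by 0.64 ± 0.07 and Lss, lanosterol synthase, by -0.61 ± 0.05, which with the trend removed were 0.37 and 0.06.

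Ribosomal and respiratory chain genes were higher in LD almost without exception, and for ribosomal genes this was no longer so with the length and level trend removed. Of 81 cytosolic ribosomal protein genes 78 were higher and none lower, with a median of 0.535, 0.204 to 0.633 over the scalings. With the trend removed 9 were higher and 15 lower, and the median was -0.0143. The members of a list also count in the medians subtracted, so a list alike in length and level can partly set its own reference. How far this was so was not tested. Rplp2, of the ribosomal stalk, was at 714 to 1279 (median 840.3) scaled FPKM in LD and 370.1 to 452 (median 427) in DD, without overlap. Its difference was 1.06 ± 0.10 (SE, adjusted p = 8.18e-08), and 0.48 with the trend removed. Of 77 nuclear-encoded subunits of oxidative phosphorylation 76 were higher and none lower, with a median of 0.682. With the trend removed 39 of 75 were higher and 7 lower, and the median was 0.119. Uqcrc1, of complex III, was at 176 to 251 (median 201) scaled FPKM in LD and 85 to 102 (median 95.6) in DD and Sdhc, of complex II, at 109.7 to 152 (median 122) scaled FPKM in LD and 55.6 to 66.2 (median 60.7) in DD, both without overlap, and their differences with the trend removed were 0.62 and 0.63. Of 38 histone genes 16 were higher and 2 lower, beside 38% and 33.7% of all genes tested, and 9 and 5 with the trend removed.

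Splicing genes were lower, and more so once the trend was removed. Of 47 spliceosome genes and splicing regulators 12 were higher and 25 lower, with a median of -0.257, and with the trend removed 5 were higher and 35 lower, with a median of -0.411. Srrm2, a scaffold of nuclear speckles, was at 24.2 to 39 (median 32) scaled FPKM in LD and 89.5 to 102 (median 96.3) in DD, without overlap, a difference of -1.63 ± 0.08 (SE, adjusted p = 4.36e-11). Ddx17, an RNA helicase, and Srsf5, an SR protein, differed by -1.25 ± 0.06 and -0.999 ± 0.05, again without overlap. Clk1 and Clk4, the kinases that phosphorylate SR proteins, differed by -0.98 ± 0.14 (SE, adjusted p = 5.2e-06) and -0.91 ± 0.11 (SE, adjusted p = 1.54e-06), while the cold-inducible Rbm3, at 38.9 to 100.4 (median 65.8) scaled FPKM in LD and 52 to 93.8 (median 70.8) in DD, did not pass the test.

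Markers of oligodendrocytes and microglia were mostly higher in LD and those of endothelium mostly lower. In LD 10 of 14 oligodendrocyte, 8 of 10 microglial and 8 of 10 neuronal markers were higher, and none, none and 1 lower, with medians of 0.445, 0.481 and 0.516, or 0.0612, 0.214 and 0.168 with the trend removed, where 2, 4 and 4 were higher and none, none and 1 lower. The neuronal list holds genes already counted above, namely Gad1 and Slc32a1 of GABA neurons and the synaptic vesicle genes Snap25 and Syt1. The oligodendrocyte median was 0.575 at 12 h, 0.00228 at 16 h and 0.832 at 20 h. Olig1, a lineage factor listed apart from these with oligodendrocyte precursors, was at 56.3 to 84.8 (median 70.0) scaled FPKM in LD and 28 to 35.4 (median 32.4) in DD, without overlap, a difference of 1.09 ± 0.07 (SE, adjusted p = 1.77e-09), or 0.70 with the trend removed. It was the highest of the 9 precursor markers, which ran from -0.361 to 1.087 with a median of 0.225. C1qb, a microglial complement gene, differed by 0.75 ± 0.09 (SE, adjusted p = 8.11e-07). Of 10 astrocyte markers 4 were higher and 1 lower, and 1 and 4 with the trend removed. Their median was 0.02, or -0.246 with the trend removed, and the members ran from -0.722 to 0.646. Aldh1l1, at the upper end, was at 24.2 to 31.9 (median 29.1) scaled FPKM in LD and 16.2 to 21.2 (median 17.9) in DD and differed by 0.65 ± 0.05. Endothelial markers were lower in 8 of 9 tested and higher in none, and mural markers lower in 3 of 7, with medians of -0.717 and -0.478, or -0.341 and -0.464 with the trend removed. The share of all genes tested that was lower was 33.7%. Slco1a4, a transporter of the blood-brain barrier, was at 1.82 to 4.23 (median 2) scaled FPKM in LD and 5.42 to 9.06 (median 6.59) in DD, and Rgs5, of pericytes, at 1.45 to 2.54 (median 1.95) scaled FPKM in LD and 5.43 to 8.76 (median 6.17) in DD. Neither overlapped between the sides, and the differences were -1.44 ± 0.12 (SE, adjusted p = 1.39e-08) and -1.48 ± 0.08 (SE, adjusted p = 1.51e-10). Each was the lowest of its list, and the highest members were at 0.18 (endothelial) and 0.023 (mural).

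**Figure D5:**
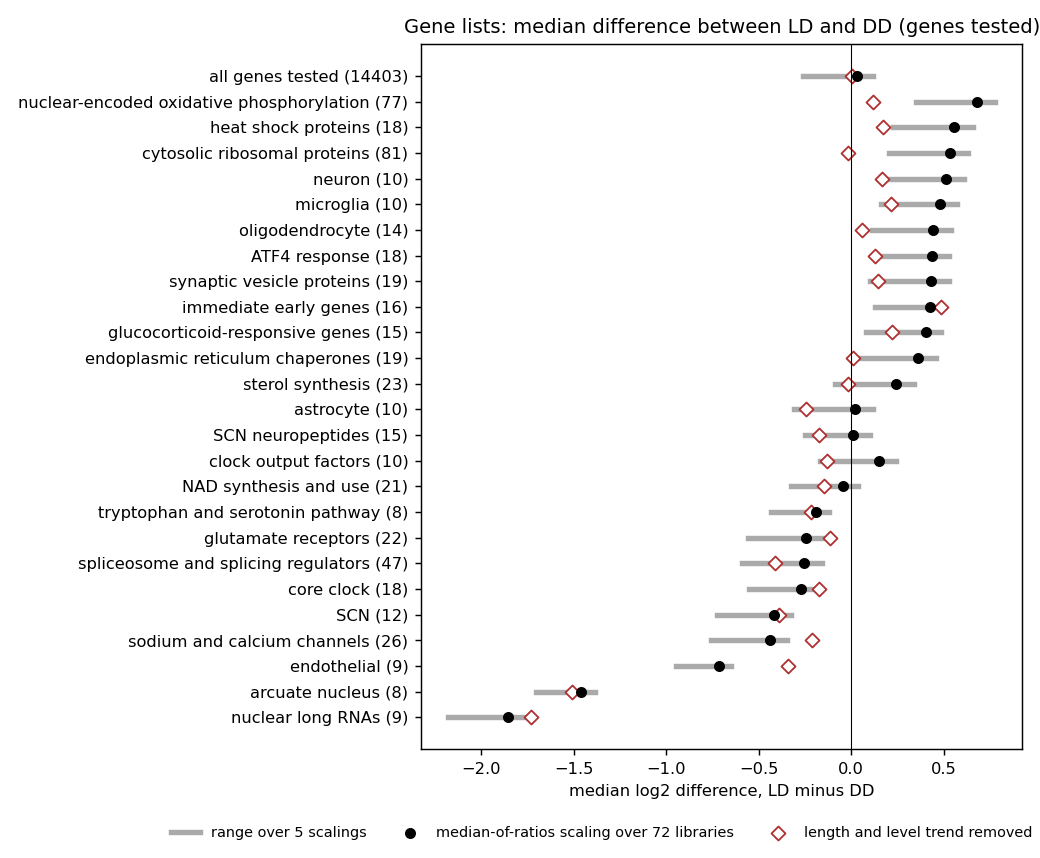
Median log2 difference of LD over DD for 25 gene lists and for all genes tested, with the number tested in brackets. Black points give the median-of-ratios scaling, grey bars the range over 5 scalings, and open diamonds the value with the length and level trend removed. In that version ribosomal proteins are at -0.0143 and nuclear long RNAs at -1.73. List members count in the medians subtracted there.

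Neither time nor a change of the difference with time passed the limma test for any gene. For time 0 of 14403 genes were called, with 2220 at an unadjusted p under 0.05. For the interaction of light and time 0 were called, with 1227 unadjusted and a smallest adjusted p of 0.218. The alternatives gave between 0 and 2 genes for the interaction apart from 1 library, replicate 1 of LD at 12 h, without which 1019 were called. For time 233 were called in a single fit of all 72 libraries. Tmem100, a membrane protein among the 5 genes with the smallest unadjusted interaction p, had differences of -0.14, 0.54 and 0.87 at 12, 16 and 20 h. In 2700054A10Rik they were -0.33, -0.86 and -0.88. The others of the 5 were Gm20063, Entpd4, which has duplicate rows of equal values, and Eno1b, which can share reads with Eno1.

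The difference between LD and DD was set against that of the other diet at the same hours, in 18 other libraries. It differed in 139 of 14441 genes (0.963%), with 2886 at an unadjusted p under 0.05, and the count ran from 26 to 535 when 1 of the 36 libraries was left out. Eif5b, a translation initiation factor that joins the ribosomal subunits, was at 11.6 to 14.1 (median 12.6) scaled FPKM in LD and 8.16 to 9.35 (median 8.86) in DD, without overlap, and differed by 0.50 here and 0.13 on the other diet. The change between diets was 0.38 ± 0.07 (SE, adjusted p = 0.0208). Lag3, an immune checkpoint receptor also found in microglia, was at 2.01 to 4.8 (median 2.46) scaled FPKM in LD and 0.802 to 1.41 (median 1.16) in DD, without overlap, and differed by 0.96 here and 0.09 there. Igfbp3 and Pcdhga11 had differences of 0.16 and 0.32 here and of -0.32 and -0.33 there, and SlcUbl4a differed by -0.51 and 0.36. Gm6644, second among the genes higher in LD, was at 14 to 34.8 (median 21.3) scaled FPKM in LD and 0.00239 to 7.77 (median 1.82) in DD here, without overlap. Its difference was 3.50 here and 0.13 on the other diet, a change of 3.37 ± 0.73 (SE, adjusted p = 0.0303). All of this rests on the shifted order. By the column headings LD and DD are exchanged in the other set, so that its differences would take the opposite sign and the changes between the sets another size.

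With the shifted order the contrast was set beside that of the 54 libraries not used for it. By the column headings LD and DD are exchanged in both sets of the other diet and for some libraries of the third set, and the directions below would not hold. In the 3 other sets of 9 LD and 9 DD libraries, which share no library with these, 96.7% of the 10329 genes called here had the same direction on the other diet at the same hours, 98.1% on the same diet at the other hours and 95% on the other diet at the other hours. Across genes the differences correlated at 0.887, 0.927 and 0.893 (Pearson, 14403 genes, given as a description, since genes are not independent). Total FPKM also split LD from DD without overlap in each of these sets. It was 435414 to 479420 against 319668 to 352980 on the other diet at the same hours. On the same diet at the other hours it was 419826 to 492024 against 317790 to 411944. On the other diet at the other hours it was 403066 to 483096 against 317417 to 334538. Light and total FPKM thus cannot be told apart in these sets either. Lhx6 differed by 3.54 here and by 3.62, 4.04 and 3.46 in the other sets, Meg3 by -2.75 and by -2.13, -1.96 and -2.30, and Per3 by -1.22 and by -1.27, -1.28 and -1.25. Cry1 differed by 0.47 and by 0.42, 0.28 and 0.16, and Atf4 by 0.88 and by 0.61, 0.70 and 0.85. Vip, not called here at -0.58 ± 0.55 (SE), had differences of the other sign, 1.06, 0.28 and 0.57, in the other sets.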

How the data were processed

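RNA of the suprachiasmatic nucleus was sequenced from stranded mRNA libraries (TruSeq). The authors trimmed reads with Trimmomatic, aligned them to mm10 with TopHat and estimated FPKM with Cufflinks, and deposited 4 tables of 24883 rows and 72 libraries. Versions are not given in the sources used here. Depth is unknown. From the deposited FPKM each library was divided by a median-of-ratios factor over the 15918 rows above 0 in all 72 libraries. Genes whose mean over the 18 libraries reached 0.5 were tested on log2(value + 0.5), a scale that understates changes of low genes, with limma 3.58.1 (R 4.3.3), with light and time as factors and, in a second fit, their interaction. The change between diets was an interaction over 36 libraries. P-values were adjusted by Benjamini-Hochberg, with a threshold of 0.05. The study gives 3 mice per group and hour, and p-values measure the spread between these libraries. Reads of near-identical genes can be split between rows. The fit was checked on simulated data. Genes named were list members with the smallest p or highest level, the 12 highest and 12 lowest without overlap at any hour and at 1 FPKM or more on the higher side, the 10 rows that weigh most in total FPKM, 5 per interaction, and the core clock genes and SCN neuropeptides. Some of these genes are not reported here. Members and lists were chosen with earlier results of these data known. Gene lengths came from GENCODE M21 and promoters from RefSeq. Alternatives were 4 other scalings, pseudocounts of 0.1 and 1, other filters, a replicate block, trended and robust moderation, a fit of 72 libraries and leaving out each library.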

Additional observations from a re-analysis of the deposited data

Results flagged for a closer look

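Summed levels of gene lists, in scaled FPKM, were compared among the 9 libraries of each side, and 16 sums lay far from the other 8 of their side. Such a test is expected to mark about 1 in 20 of the 94 groups by chance. In replicate 3 of LD at 20 h these were cortex and striatum markers (906), tanycyte markers (154), immediate early genes (138), CREB-linked genes (186), glutamate receptors (452), sodium and calcium channels (649) and potassium channels (624), all high, and ependymal markers (23.7), low. In replicate 2 of LD at 12 h SCN markers (991) and endothelial markers (56.5) were high, and in replicate 3 of LD at 12 h oxidative phosphorylation genes (35800). In DD, replicate 1 of 12 h was high in choroid plexus (58.5), cortex and striatum (62) and thalamus (261) markers, replicate 1 of 20 h in nuclear long RNAs (2620), and replicate 3 of 16 h low in small nucleolar and spliceosomal RNAs (58.4). The difference between LD and DD differed from that of the other diet in 139 genes by a test of the interaction, with the shifted order of columns. By the headings LD and DD are exchanged in the other set, and the changes would have another size. The 5 with the smallest p were Eif5b, with a change of 0.376 on the log2 scale, Lag3 (0.875), SlcUbl4a (-0.867), Igfbp3 (0.478) and Pcdhga11 (0.644).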

How the results depend on the processing

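The count of genes called between LD and DD, 10329, ran from 8587 to 11625 over the alternatives, and from 10065 to 10521 when 1 library was left out. Past 0.5 it was 4781, and 4522 to 4984 with 1 library left out, and fell to 2862 only with the length and level trend removed, an alternative added after the data were seen. For the interaction with time 1 gene was called with no filter on low values and 2 in a single fit of 72 libraries, and 0 to 1019 with 1 library left out, where replicate 1 of LD at 12 h gave 1019, replicate 1 of LD at 20 h 1 and replicate 2 of DD at 12 h 2. For time, the single fit of 72 libraries called 233, and leaving out 1 library 0 to 9, with replicate 2 of DD at 20 h giving 9 and replicate 1 of DD at 12 h 4. The count that differed from the other diet, 139, was 223 with shares of the sum, 324 with upper-quartile scaling and 26 to 535 without 1 of 36 libraries, 22 of which moved it by over 1.5 times. It fell below 93 without replicates 1 and 3 of DD at 12 h (58 and 33), replicate 1 of DD at 16 h (83) or at 20 h (29), replicates 2 and 3 of LD at 12 h (82 and 87) and, on the other diet, replicates 1, 2 and 3 of LD at 12 h (28, 26 and 45), replicate 1 of LD at 16 h (81) or 20 h (56), replicates 2 and 3 of DD at 12 h (77 and 81), replicate 3 of DD at 16 h (80) or replicate 2 at 20 h (59). It rose without replicate 3 of DD at 16 h (218), replicate 2 of DD at 20 h (215) and replicate 2 of LD at 16 h (285) and, on the other diet, replicate 3 of LD at 16 h (297), replicate 2 of LD at 20 h (535), replicate 1 of DD at 12 h (306) and replicate 2 of DD at 16 h (382). The replicate numbers did not pair the libraries, with correlations of their deviations of -0.0586 to 0.317, and a replicate block gave 10333 calls, 4784 past 0.5, 0 for time and for its interaction with light, and 163 for the other diet. With the trend removed the sign turned, without a call, for Cst3 (-0.045), Rps29 (-0.051), Apoe (-0.081), Ubb (-0.113), Timeless (0.042) and Lss (0.057), and Arntl, Asns, Hspa8, Hspe1, Ppia, Ppp1r1b, Rora, Rpl41, Sim1, Slc7a11, Tmem100 and Tsc22d3 lost their call. As shares of the sum, Asns, Cry1, Dusp1, Htr7, Jun, Pcdhga11, Tmem100 and Ubb lost their call. The cause of these changes was not tested. Depth is unknown, so no counting error could be given for low values.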

Other observations

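Peptide genes outside the SCN lists also separated the sides. Crh, corticotropin-releasing hormone of the paraventricular nucleus, was at 5.72 to 10.4 (median 7.87) scaled FPKM in LD and 0.536 to 4.5 (median 3.06) in DD, without overlap, and differed by 1.63 ± 0.24 (SE, adjusted p = 9.24e-06). Tac2, neurokinin B, was at 63.7 to 137 (median 73.1) scaled FPKM in LD and 27.8 to 48.1 (median 34.9) in DD, also without overlap, and differed by 1.20 ± 0.12 (SE, adjusted p = 1.53e-07), although 6 of the 8 genes tested in the arcuate list that holds it were lower in LD. Sim1, a factor of paraventricular development, was at 0.537 to 1.5 (median 1.05) scaled FPKM in LD and 1.25 to 3.87 (median 2.03) in DD and differed by -0.77 ± 0.17 (SE, adjusted p = 0.000513), or -0.06 with the length and level trend removed (adjusted p = 0.758). Oxt, oxytocin, overlapped between the sides and did not pass the test (adjusted p = 0.204). Cga, the common subunit of pituitary glycoprotein hormones, reached 41.7 scaled FPKM in DD with a median of 14.1, against 0.969 or less in LD, and 3 of 5 pituitary markers tested were lower in LD and 1 was higher. Among glial and lining cells, 5 of 8 tanycyte and 3 of 8 ependymal markers were lower in LD and none was higher. Scn7a, a sodium channel of glia that sense salt, counted here as a tanycyte marker, was at 0.403 to 1.23 (median 0.908) scaled FPKM in LD and 2.15 to 7.93 (median 5) in DD, without overlap, and differed by -1.85 ± 0.19 (SE, adjusted p = 2.37e-07), or -1.14 with the length and level trend removed. Hydin, a very long transcript of ciliated cells, was at 0.0431 to 0.365 (median 0.255) scaled FPKM in LD and 0.846 to 1.46 (median 1.06) in DD, without overlap, and its difference of -1.08 ± 0.09 shrank to -0.34 with the trend removed. Of 9 markers of oligodendrocyte precursors 5 were higher and 1 lower in LD. Of 7 choroid plexus markers 2 were higher and 2 lower, of 10 leptomeningeal markers 1 was lower, of 6 erythrocyte markers none was called, of 7 supraoptic and paraventricular markers 1 was higher and 1 lower, of 6 thalamic markers 1 was higher and 1 lower, and of 9 cortical and striatal markers 4 were higher. Without the 3 libraries that stood apart 4 of the supraoptic and paraventricular and 4 of the thalamic markers were higher and 1 of each lower. Of 22 small nucleolar and spliceosomal RNAs 3 were lower and none was higher. No gene of the mitochondrial genome was listed.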
